A study of Mus musculus with 16 samples.

Results

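The stretch of mouse chromosome 1 from 172000000 to 176500000 (build mm8) was read by 604 array probes, of 235402 probes on the whole array and beside 15598 probes on the rest of the chromosome. Every experimental probe whose deposited position lay in this 4.5 Mb window was taken, whatever its value. The window itself had been proposed from earlier results of these data in which Balb/C and C57BI6 lines differed here, so the strain differences below are descriptions: they give no p, and the counts of strain calls support nothing here.

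The data were comparative genomic hybridisation arrays of 16 syngeneic mouse tumour lines, lines that can be regrown in mice of the strain they came from. Genomic DNA of 1 culture of each line was labelled with Cy5 and hybridised beside a commercial mouse genomic DNA labelled with Cy3, whose strain is not given in the sources used here. The Balb/C lines were CT26 from colon, 4T1 from breast and Renca from kidney. P815, from mast cells, was the only DBA/2 line. The C57BI6 lines were MC38 from colorectum, LL2 from lung, B16F0 from the suppliers ECAC and ATCC and B16F10 from NCI and ATCC (all melanoma), Hepa1-6 from liver, PAN02 from pancreas, TRAMPC1 and TRAMPC2 from prostate, EL4 from blood and ID8 from ovary. The 4 B16 arrays and the 2 TRAMPC arrays were averaged, which left 12 families: 3 Balb/C, P815 and 8 C57BI6. No line was hybridised more than once, so each SD below over families is the spread between lines of different tumours. SDs given over the 12 C57BI6 arrays also take in arrays of 1 tumour.

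All values are log2 ratios of line over reference, centred on the autosomal median of each array. A ratio of 0 means that line and reference gave the same signal, and a ratio of 1 means 2 times as much signal from the line. A ratio does not tell the number of copies of a sequence from how well the line's sequence pairs with the probe.

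The window was named for gene clusters of the immune system. The Slam family, which includes Slamf1, Cd48, Ly9, Cd244a and Cd84, encodes cell surface receptors through which lymphocytes and natural killer cells recognise one another, and most members signal through small adaptors of the SAP type. Inbred mouse strains fall into a small number of Slam haplotypes, with C57BL/6 mice apart from most other laboratory strains, and the haplotypes differ in Cd244 and Slamf6 among others. The interferon-inducible Ifi200 family includes Aim2, a sensor of DNA in the cytosol that starts inflammasome assembly, and Ifi202b, Ifi203, Ifi204 and Mndal, nuclear or cytosolic proteins induced by interferon. Genes of Fc receptors for IgG and IgE (Fcgr2b, Fcgr3, Fcgr4, Fcer1g and Fcer1a) lie beside both clusters. RefSeq's GRCm38.p6 annotation holds all 9 Slam and all 7 Fc receptor genes that were looked up, and the 14 interferon-inducible symbols matched 13 genes, since Mnda and Ifi211 name the same one there. In its order the Fc receptor genes Fcrlb to Fcer1g come first, then Cd244a, Ly9, Slamf7, Cd48, Slamf1, Cd84, Slamf6, Slamf9 and Slamf8, then Fcer1a and Aim2, and last the Ifi genes from Ifi206 to Ifi205. That annotation is of another build than the probes, so no probe was given a gene here and the results are stated by mm8 position.

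The window was well measured. Between 99.2% and 100% of its probes were well above background in the line channel of each array, and between 99.3% and 99.8% in the reference channel. Neighbouring probes lay a median of 6115 bp apart, and the widest gap was 38367 bp. Every probe had a value in every family.

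Values of Balb/C and C57BI6 families did not overlap, with means at least 1 apart, at 36 of the 604 probes (5.96%), of which 22 were higher and 14 lower in Balb/C. Over all autosomal probes 1.14% met this criterion, 0.124% with Balb/C higher and 1.02% with Balb/C lower, and on the rest of chromosome 1 it was met by 113 of 15565 (0.726%). The higher and the lower probes were arranged differently along the chromosome. Of the 22 higher probes, 19 lay in 2 blocks. These blocks were drawn around the higher probes alone, so it says nothing about the 14 lower probes that 0 of them lay there. Neighbouring higher probes were a median of 9.62 kb apart, against 136 kb for the lower probes, which were scattered from 173050067 to 176383682. Centred on the rest of chromosome 1 instead of all autosomes, 40 probes met the criterion, 19 higher and 21 lower. With normexp, a model that subtracts an estimated background from each spot, 22 met it, 20 higher and 2 lower.

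The first block ran from 173351486 to 173415054 (63.6 kb, 12 probes, 10 of them non-overlapping), and C57BI6 families had far less signal there than the reference. Its mean was 0.067 in CT26, 0.12 in 4T1 and 0.16 in Renca, and 0.087 in P815. The 8 C57BI6 families lay between -1.94 and -1.38, with a median of -1.67. All 3 Balb/C lines and P815 were thus near the reference and every C57BI6 family was well below it, with no overlap. The Balb/C mean of 0.12 ± 0.049 (SD, n = 3) was higher than the C57BI6 mean of -1.69 ± 0.22 (SD, n = 8) by 1.80, or 3.49-fold. The limits of both blocks were drawn after the values were seen.

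Measured from the level of the rest of chromosome 1 in the same line, the first block stood at 0.022 ± 0.037 in Balb/C lines (SD, n = 3), at -0.25 in P815 and at -1.64 ± 0.067 in C57BI6 families (SD, n = 8). The spread among the C57BI6 families on this scale was under that on the autosomal scale, so they were nearly alike once the level of their own chromosome was taken off. With each array centred in this way the difference between Balb/C and C57BI6 was 1.66. Within the scan batch that held all Balb/C lines, with Hepa1-6, ID8 and B16F10 NCI as C57BI6, it was 1.79.

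Single probes of the first block differed in size while keeping the order of the strains, with 1 exception. From 173351486 to 173387683, 7 successive probes were all non-overlapping and averaged 0.067 ± 0.10 in Balb/C (SD, n = 3), -0.0081 in P815 and -2.19 ± 0.24 in C57BI6 (SD, n = 8), a 4.78-fold difference. From 173400488 to 173405431, 2 more gave 0.12 ± 0.017 in Balb/C, 0.25 in P815 and -2.19 ± 0.26 in C57BI6. The widest single difference, 3.23, was at 173377091 to 173377150, where CT26, 4T1 and Renca had 0.16, 0.22 and 0.36, P815 had 0.26, and the C57BI6 families lay between -3.39 and -2.58 with a median of -3.01. This was also the lowest probe of the window in 10 of the 12 C57BI6 arrays.

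Probes inside and just outside the block did not all follow it. At 173393254 to 173393313 the C57BI6 mean was -0.62 ± 0.22 (SD, n = 8), with Balb/C at 0.037 ± 0.056 (SD, n = 3) and P815 at -0.54, so that P815 lay with C57BI6 at this probe. At 173410499 to 173410558 the order turned round, with 0.069 ± 0.10 in Balb/C, 0.17 in P815 and 0.74 ± 0.24 in C57BI6. The nearest probe before the block began ended 2.94 kb ahead of it and gave 0.095 ± 0.12 in Balb/C, 0.046 in P815 and -0.49 ± 0.13 in C57BI6. The nearest after it began 6.38 kb beyond.

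**Figure D1:**
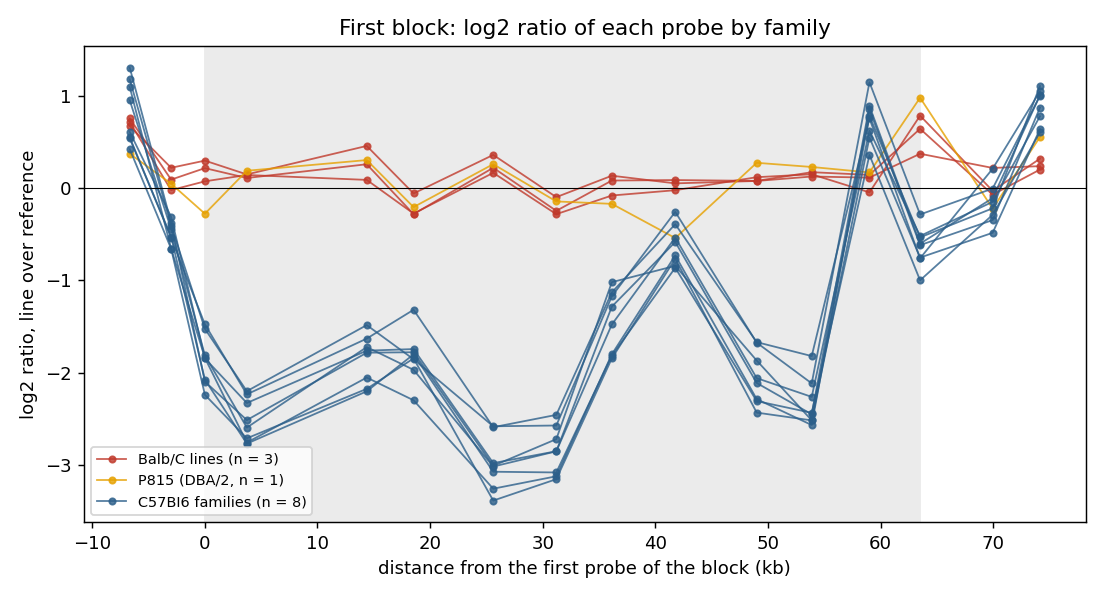
Log2 ratio of line over reference (vertical axis) at each probe of the first block and at the nearest probes on either side, against the distance from the first probe of the block in kb. Each line is 1 family (3 Balb/C, P815, 8 C57BI6) and the shaded area is the block. Balb/C lines and P815 lie within 0.5 of 0 at most probes, with P815 down to -0.54 at 1 inner probe and up to 0.98 at the last probe of the block, while the 8 C57BI6 families drop together, down to -3.39, and are above 0 at 1 inner probe.

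The second block ran from 175715070 to 175817538 (102.5 kb, 11 probes, 9 of them non-overlapping), and there Balb/C lines were above the reference and C57BI6 families below it. Its mean was 0.53 in CT26, 0.61 in 4T1 and 0.68 in Renca, and -0.22 in P815. The C57BI6 families lay between -0.97 and -0.20, with a median of -0.79 and MC38 as the highest. Balb/C and C57BI6 did not overlap. The means were 0.61 ± 0.078 in Balb/C (SD, n = 3) and -0.70 ± 0.28 in C57BI6 (SD, n = 8), a difference of 1.30 or 2.47-fold. It was 1.16 with arrays centred on the rest of chromosome 1 and 1.35 within the scan batch of the Balb/C lines.

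The P815 value of the second block rested on its last probe. At 175817479 to 175817538 P815 stood at -4.99, with its signal not well above background, against 1.28, 1.476 and 1.53 in CT26, 4T1 and Renca and 0.15 ± 0.42 in C57BI6 (SD, n = 8). Without this probe, the other 10 averaged 0.26 in P815, between the 0.53 ± 0.073 of Balb/C (SD, n = 3) and the -0.78 ± 0.27 of C57BI6 (SD, n = 8). The difference of P815 from C57BI6 was 1.04 without the probe and 0.48 with it. With arrays centred on the rest of chromosome 1, where P815 itself was high, the difference over all 11 probes was 0.10, and that of the first block was 1.39, against 1.77 on the autosomal scale.

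Within the second block the place of P815 varied from probe to probe. At the first probe, 175715070 to 175715129, it had 0.44, below the 1.23 to 1.28 of the Balb/C lines and above the C57BI6 families, whose highest was 0.17. Over the 4 probes from 175754620 to 175774743 its mean was 0.51, with 0.57 ± 0.027 in Balb/C (SD, n = 3) and -0.62 ± 0.22 in C57BI6 (SD, n = 8), although at the last of the 4 its 0.18 fell inside the range of C57BI6. Over the 3 probes from 175792140 to 175808153, which leave out the dim last probe, it had -0.22, between the 0.44 ± 0.14 of Balb/C and the -1.25 ± 0.35 of C57BI6. At 175808094 to 175808153, a probe with signal above background in every line, P815 had -0.89, with 0.13 ± 0.17 in Balb/C and -1.31 ± 0.41 in C57BI6. P815 thus kept to neither strain through the block.

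**Figure D2:**
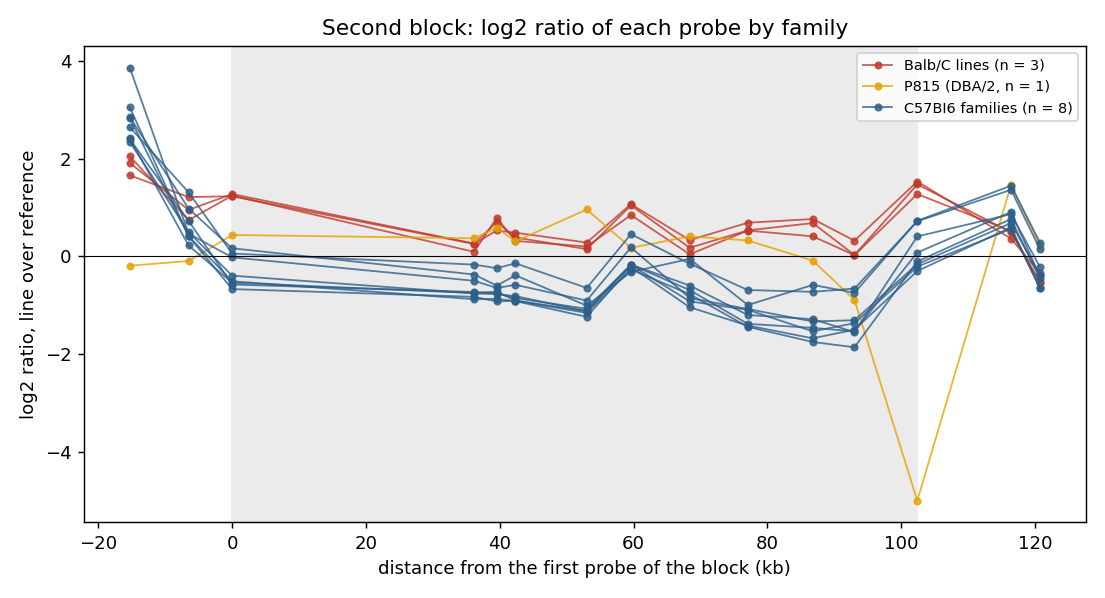
Log2 ratio of line over reference (vertical axis) at each probe of the second block and at the nearest probes on either side, against the distance from the first probe of the block in kb. Each line is 1 family (3 Balb/C, P815, 8 C57BI6) and the shaded area is the block. P815 lies mostly between or beside the Balb/C lines and the C57BI6 families inside the block, and at the last probe of the block it is at -4.99, where its signal was not well above background.

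The signal of each dye was also read on its own. Each channel was expressed against its own median over the rest of chromosome 1 on the same array. C57BI6 was counted here over 12 arrays, of which 4 were B16 and 2 TRAMPC. Its SDs are therefore not over independent tumours. In the first block the line channel stood at 1.69 ± 0.12 in Balb/C (SD, n = 3 arrays), 1.35 in P815 and -0.043 ± 0.17 in C57BI6 (SD, n = 12 arrays). The reference channel was alike on all arrays there, at 1.67 ± 0.062 in Balb/C, 1.58 in P815 and 1.63 ± 0.084 in C57BI6. The strains thus parted in the channel that carried the line's own DNA. Since the same reference DNA was on every array, a strain difference in the ratio had to lie in that channel, so this is a description only. In the second block the line channel stood at 1.21 ± 0.10 in Balb/C, 0.16 in P815 and -0.0016 ± 0.18 in C57BI6, and the reference channel at 0.69 ± 0.023 in Balb/C, 0.69 in P815 and 0.71 ± 0.052 in C57BI6. Here too Balb/C and C57BI6 arrays differed in the line channel and not in the reference channel. The 0.16 of P815 lay within the range of the C57BI6 arrays, but it took in the last probe of the block. At that probe the P815 signal was not well above background. The rest of chromosome 1 stood at 0.33 in P815 on the autosomal scale, so its line channel was measured from a high level in both blocks. On that autosomal scale, which is not the scale of the channels, the mean ratio of P815 in the second block was -0.22. Without the last probe it was 0.26.

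**Figure D3:**
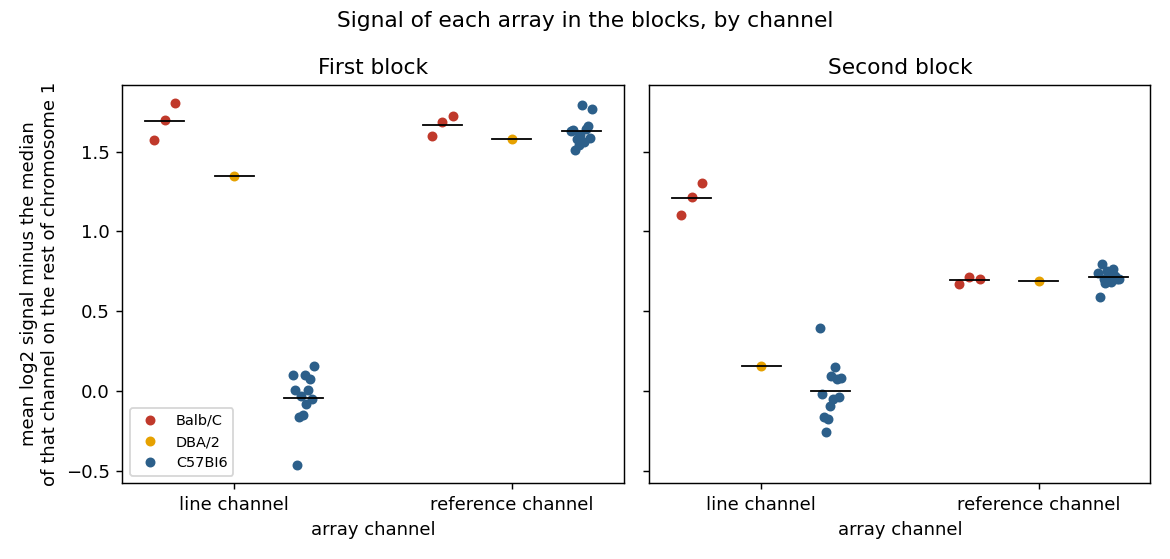
Mean log2 signal of each of the 16 arrays in the first block (left) and the second block (right), minus the median log2 signal of the same channel over the rest of chromosome 1 (vertical axis). Points are arrays, grouped by channel and coloured by strain (3 Balb/C, 1 DBA/2, 12 C57BI6), and bars are group means. Balb/C and C57BI6 arrays separate in the line channel and not in the reference channel. In the line channel P815 lies nearer to Balb/C in the first block and among the C57BI6 arrays in the second. The second value includes the last probe of that block, where the P815 signal was not well above background. Both P815 values are measured from a rest of chromosome 1 that was itself high in P815.

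The 14 probes at which Balb/C was lower formed no block. They had a median of -0.085 in Balb/C and 1.29 in C57BI6 over probe means. As in the first block, it was thus the C57BI6 families that stood off the reference. Only 3 pairs of neighbours fell among them. From 174156447 to 174163889 Balb/C stood at -0.028 ± 0.17 (SD, n = 3), P815 at -0.098 and C57BI6 at 1.20 ± 0.30 (SD, n = 8). From 174999573 to 175007147 the values were -0.0048 ± 0.098 in Balb/C, -0.15 in P815 and 1.51 ± 0.35 in C57BI6, and 1 of these probes had a reference signal not well above background on at least 1 array. From 176377736 to 176383682 they were 0.0054 ± 0.12 in Balb/C, -0.47 in P815 and 1.79 ± 0.26 in C57BI6. These pairs depended on the background correction. With normexp the 3 differences were -0.60, -0.65 and -1.01, against -1.23, -1.52 and -1.78 as measured, while the blocks changed little (1.93 and 1.28).

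The other 11 non-overlapping probes stood alone outside both blocks, 3 higher and 8 lower in Balb/C. The largest of the higher ones, at 173119394 to 173119445, had 1.88 ± 0.21 in Balb/C (SD, n = 3), -0.27 in P815 and -0.34 ± 0.27 in C57BI6 (SD, n = 8), so that P815 fell within the range of C57BI6. The largest of the lower ones, at 176160997 to 176161056, had 0.27 ± 0.26 in Balb/C, 0.24 in P815 and 2.57 ± 0.47 in C57BI6. Here P815 lay with Balb/C. At the edge of the criterion, the probe just inside it, at 174634389, had 0.48 in Balb/C and 1.53 in C57BI6, and the probe just outside, at 174702386, had 0.28 in Balb/C and 1.22 in C57BI6.

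Balb/C lines and P815 were mostly close to the reference at these positions and C57BI6 families were not. Of the 36 probes, 26 had a Balb/C mean within 0.5 of 0, and 26 had a P815 value within 0.5 of 0, as against 4 for the C57BI6 mean. P815 took no part in choosing the 36 probes, but the C57BI6 values did, and their means were mostly far from 0. Any line near the reference would therefore mostly count with Balb/C, and the counts that follow are a description only. Counted as lying with a strain when it was within 0.5 of that strain's range, it fell with Balb/C alone at 23 of the 36, with C57BI6 alone at 7, with both at 3 and with neither at 3. Neither kind of count is given here for non-overlapping probes elsewhere on the autosomes. The counts therefore do not show a trait particular to this window. In the first block it lay with Balb/C at all 10 non-overlapping probes. In the second block the 9 such probes divided as 2 with Balb/C, 3 with C57BI6, 2 with both and 2 with neither.

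The fit across all autosomal probes gave a second count for the strains. In limma with Benjamini-Hochberg adjustment at 0.05, 62 of 604 probes (10.3%) differed between Balb/C and C57BI6, 32 higher and 30 lower. Over the 220233 autosomal probes tested, 2.34% were called, 0.361% higher and 1.98% lower, and on the rest of chromosome 1 it was 238 of 15565 (1.53%). The median difference over all probes was 0.18 in the window and 0.15 on the rest of the chromosome. Because the window was chosen for this contrast, nothing is read from its share. With arrays centred on the rest of chromosome 1 the calls were 67, 27 higher and 40 lower. All Balb/C arrays were in 1 of 2 scan batches. With the batch as a block 29 probes were called, 22 higher and 7 lower, and within that batch 41 were called, 28 higher and 13 lower. With normexp 20 were called, all higher in Balb/C.

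P815 was compared with the same 8 C57BI6 families in that fit, which takes the spread of the 1 P815 array to be that of the other groups. In the window 51 of 604 probes (8.44%) were called, 21 higher and 30 lower in P815. The share over all autosomal probes was 5.61%, 0.842% higher and 4.76% lower, and on the rest of chromosome 1 it was 767 probes (4.93%). The median difference was 0.078 in the window and 0.43 on the rest of the chromosome. The higher calls lay mostly in the blocks, which had been drawn from the C57BI6 values that this contrast shares. Of the 12 probes of the first block 10 were called higher and 0 lower, of the 11 of the second block 6 were higher and 1 lower, and of the other 581 probes 5 were higher and 29 lower. Centred on the rest of chromosome 1, where P815 stood at 0.33, the calls were 70, with 13 higher and 57 lower. With normexp the limma count was 0, with 18 probes at an unadjusted p under 0.05 and a lowest adjusted p of 0.83, so none of these calls held with that correction.

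Some positions set P815 apart from both other strains. From 175964400 to 175970735, 2 probes gave -4.46 in P815, against 1.30 ± 0.34 over the other 11 families (SD), whose lowest was 0.83. The P815 signal was not well above background at either probe, so the size of the difference is uncertain. As a floor, it was raised to the lowest line signal on that array among probes well above background. P815 was then 12.3-fold lower than Balb/C and 11.05-fold lower than C57BI6. At the last probe of the second block, 175817479 to 175817538, it was in the same way 24.3-fold lower than Balb/C and 10.01-fold lower than C57BI6. These folds depend on the floor and are not firm bounds. With normexp the log2 difference from the other families from 175964400 to 175970735 was -0.62, against -5.75. P815 had 5 probes in the window not well above background, whereas no other array had more than 1. These 5 were not all low values of P815. At 174724043 and 175699761 the reference signal on that array was not well above background either. At 174724043 P815 had 1.67, above the 0.68 of Balb/C and the 0.74 of C57BI6.

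The other P815 positions were less extreme. From 172086327 to 172090499, 2 probes gave -1.40 in P815, against -0.080 ± 0.29 over the other families (SD, n = 11). From 175694053 to 175699820 P815 had -1.10, against 1.71 ± 0.31, and at 1 of these 2 probes neither the P815 nor the reference signal on that array was well above background. In the other direction, P815 had 0.59 from 175660118 to 175664752, against -0.47 ± 0.33. These positions were picked because P815 stood alone at them, and the values are given without a test. With normexp the 3 lower differences were -0.11 from 172086327, -0.50 from 175694053 and -0.62 from 175964400, against -1.31, -2.81 and -5.75.

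EL4 was the only family to stand alone over 3 or more neighbouring probes, since the P815 runs above held 2 probes each. From 173021971 to 173038499 its 3 probes averaged -1.22, against 0.17 ± 0.26 over the other 11 families (SD), which lay between -0.22 and 0.50. With normexp the difference was -0.57, against -1.39. EL4 was read by 1 array, and this value was not tested.

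The window as a whole differed from the rest of its chromosome in every family by less than Balb/C and C57BI6 differed in either block. The median of the window minus the median of the rest of chromosome 1 was 0.054 in CT26, 0.090 in 4T1, 0.11 in Renca and -0.24 in P815. Among the 8 C57BI6 families it ran from -0.082 in B16 to 0.23 in MC38, with a median of 0.11. The mean over the 12 families was 0.058 ± 0.12 (SD), with 9 families above 0 and 3 below. An exact two-sided sign-flip permutation test gave p = 0.13, and 0.0005 is the smallest p it can give, so the mean did not stand out from the spread between families. Without P815, an alternative added after seeing the data, the mean was 0.085 with an exact p of 0.0078, and against the 10 Mb on each side in place of the rest of the chromosome it was 0.098 with an exact p of 0.00098. The result therefore depends on P815 and on what the window is set against. Within the scan batch of the Balb/C lines the mean was 0.076, with an exact p of 0.0625.

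**Figure D4:**
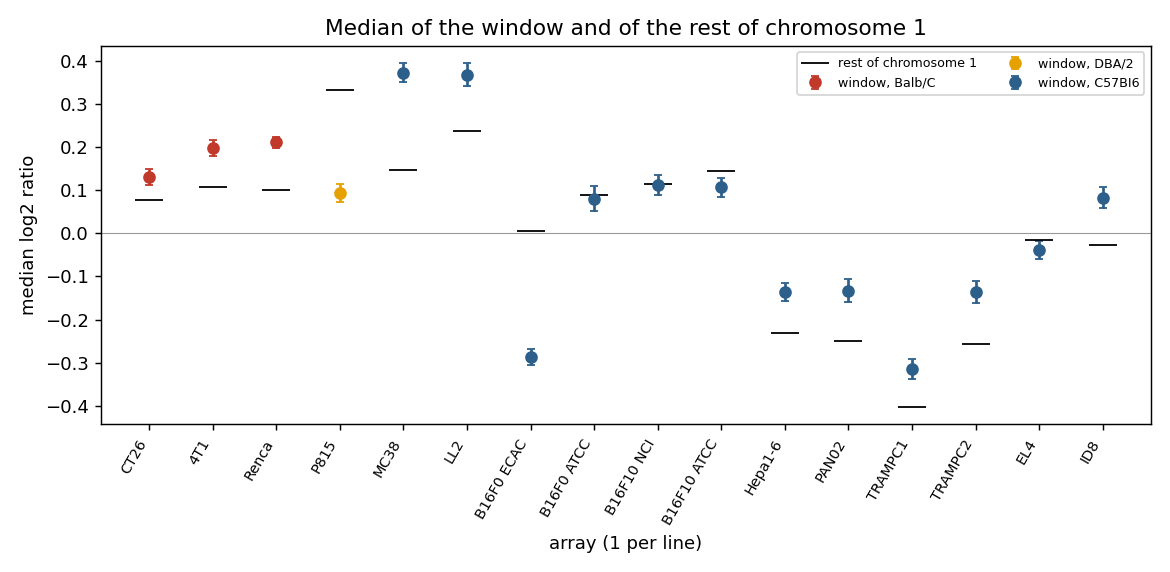
Median log2 ratio of the window for each of the 16 arrays (points, with bars for the standard error of the median over probes) and median of the rest of chromosome 1 (dashes). Points are coloured by strain. P815 and B16F0 ECAC lie clearly below the rest of their chromosome, and MC38 lies above it.

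Levels of single arrays showed where the window lay inside larger segments. In P815 the window had a median of 0.093, with -0.15 and -0.12 over equal lengths before and after it and 0.33 on the rest of the chromosome. In B16F0 ECAC the window was at -0.29 and both neighbouring stretches were lower still, at -0.35 and -0.37, with 0.0067 on the rest of the chromosome. The other 3 B16 arrays had 0.081 to 0.11 in the window. MC38 had 0.37 in the window, 0.19 before it and 0.50 after it. When the window and both neighbouring stretches were divided at the point that best separated 2 levels, MC38 changed inside the window, between 175808153 and 175817479, with a median of 0.27 over the 907 probes before and 0.52 over the 576 probes after. Renca changed at 177719387, beyond the window, with 0.18 before and -0.44 after. In the other 14 arrays the best division separated levels by no more than 0.18.

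Lines of 1 strain label resembled one another probe by probe. The median SD of a probe over the 8 C57BI6 families was 0.29 in the window and 0.27 on the rest of chromosome 1, and with arrays centred on the rest of the chromosome it was 0.20 in the window and 0.18 on the rest. Across the 604 probes, the median Pearson correlation was 0.82 over the 3 pairs of Balb/C lines, 0.92 over the 28 pairs of C57BI6 families and 0.45 between Balb/C and C57BI6. On the rest of the chromosome, over 15565 probes, these were 0.77, 0.74 and 0.56. P815 correlated at 0.35 with Balb/C and at 0.27 with C57BI6 in the window, and at 0.50 and 0.49 on the rest. All pairs share the reference DNA and the probes' own response, and probes are not independent replicates.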

How the data were processed

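Genomic DNA of 16 lines was measured on 2-colour Agilent arrays, 1 array per line. Per the file headers, the authors ran Feature Extraction 10.7.3.1 with probe positions on mm8. The deposited processed intensity of each dye is background-subtracted, detrended and scaled between dyes by a linear factor, and the deposited log10 ratio is red (Cy5, the line, per the labels) over green (Cy3, the reference). The deposited value table holds log2 ratios, which differed from those of the processed signals by at most 5.06e-05. The deposited flag columns were read for outlier, saturated and background spots.

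Here log2 ratios were formed from the processed signals, spots flagged as outliers were left out, spots of 1 probe were averaged and each array was centred on its autosomal median. Arrays of 1 tumour were averaged to 12 families. limma 3.58.1 (R 4.3.3, lmFit and eBayes) was fitted on all 220233 autosomal probes with 3 strain groups and Benjamini-Hochberg adjustment at 0.05, and its script was tested on simulated data. The p-values measure only the spread between families. Normexp (offset 50) was run on median spot and background signals, since the files read here gave no mean signal.

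The window, the lists and the tests were chosen with earlier results of these data known. Named are runs of at least 2 neighbouring non-overlapping probes, the largest single such probe in each direction, runs of at least 3 probes at which 1 family alone lay at least 1 from the median of the others, and runs of at least 2 where P815 alone did so. Other positions were chosen after their values were seen. The number of arrays limits the precision. Alternatives covered centring, flags, dim probes, families, scan batch, thresholds and the table.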

Additional observations from a re-analysis of the deposited data

Results flagged for a closer look

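The level of the window in B16F0 ECAC stood apart from the other 3 B16 arrays. Its median lay -0.2928 from that of the rest of chromosome 1, whereas the other 3 lay between -0.039 and -0.002. The gap to the nearest of them was 0.873 of the whole range, above the critical value of Dixon's test for 4 samples. Of 13 groups of values examined this way, 1 passed the critical value, and chance passes about 1 in 20.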

How the results depend on the processing

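The number of probes called between Balb/C and C57BI6 (62) was 20 with normexp, 29 when scan batch was a block, and 41 over the first batch alone, and lay between 46 and 66 when 1 Balb/C line or 1 C57BI6 family was left out. The non-overlapping probes (36) numbered 22 with normexp (20 higher, 2 lower), 77 at a threshold of 0.5 and 16 at 1.5, and 35 to 38 when 1 family was left out. P815 lay with Balb/C alone at 23 of 36, at 11 of 22 with normexp, at 32 of 77 with the threshold at 0.5 and at 12 of 16 with it at 1.5. The P815 calls by limma (51) were 0 with normexp, with 18 at an unadjusted p under 0.05, and 45 to 56 when 1 family was left out. The median SD among C57BI6 families (0.29) was 0.20 with arrays centred on the rest of chromosome 1. The level of the window (0.058) was 0.098 against the 10 Mb on each side and 0.085 without P815, 0.033 with each array counted on its own, where the exact p was 0.34, and 0.043 to 0.071 when 1 Balb/C or C57BI6 family was left out. In all 21 alternatives run, the difference of each block moved from its main value by less than the SD between C57BI6 families. It ran from 1.66 to 1.93 in the first block and from 1.16 to 1.38 in the second. The cause of these changes was not tested. No alternative turned the sign of the level or of a named difference. The balance of directions did turn: centred on the rest of chromosome 1, the non-overlapping probes were 19 higher and 21 lower, against 22 and 14, and the calls 27 higher and 40 lower, against 32 and 30. Centred on the mode, the calls were 30 higher and 33 lower, and at a threshold of 0.5 the non-overlapping probes were 38 higher and 39 lower. No paired analysis was possible because replicate numbers were given in accession order and pair no samples.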
